A study of Homo sapiens with 24 samples.

Results

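The comparison described here asks how the response to CG-1521 differed between SUM149PT and SUM190PT, and which genes moved in opposite directions in them. Both are established lines from inflammatory breast cancer, and the series title gives CG-1521 as an inhibitor of histone deacetylases. The groups were SUM149PT with 7.5 µM CG-1521, SUM149PT with vehicle, SUM190PT with 5 µM CG-1521 and SUM190PT with vehicle (ethanol and DMSO), each with 3 arrays from independent experiments and 48 h of treatment. Per the labels both lines are ER(-) and carry mutant p53, M237I in SUM149PT and Q317X in SUM190PT. SUM149PT was treated in medium with serum, whereas SUM190PT attached in low-serum medium and was then treated without serum. Line, dose and medium therefore cannot be told apart, and "line" below stands for all of them. These 12 of the 24 arrays of the series gave the comparison. In the other 12 arrays both lines were treated with 10 nM 17β-estradiol plus CG-1521 or with 10 nM 17β-estradiol alone, and they took no part in choosing genes, although they share line, dose and medium with the first 12.

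Values are log2 expression (RMA), so a difference of 1 is a 2-fold change. For each of 18417 genes the change in a line is the CG-1521 mean minus the vehicle mean, and the difference between the lines is the SUM149PT change minus the SUM190PT change. A positive difference means that the SUM149PT change was the higher of the pair. A gene counted as moving in opposite directions when this difference passed an adjusted p under 0.05 in limma and the gene also passed in each line, with opposite signs. The rule found 230 of 18417 genes. By RefSeq type 226 of them were protein coding, 3 were snoRNA genes and 1 was a transcribed pseudogene.

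Histone deacetylases remove acetyl groups from histones and from many other proteins, among them the chaperone HSP90. Their inhibitors raise some genes and lower others, depending on the cell. Several of the genes below belong to programmes with a known master regulator. SREBP proteins are held in the endoplasmic reticulum while sterols are plentiful and switch on cholesterol and fatty acid synthesis when sterols fall. HSF1 switches on the cytosolic chaperones when proteins misfold.

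Vehicle levels largely matched what the lines are known as. Markers of luminal epithelium were the higher in SUM190PT by their list median. It was 6.445, 6.222 and 6.178 over 22 genes in SUM149PT, against 9.455, 9.252 and 9.632 in SUM190PT. ERBB2 had 7.22, 7.25 and 7.06 in SUM149PT against 12.69, 12.41 and 12.67 in SUM190PT. The basal list median was the higher in SUM149PT, at 9.309, 9.364 and 9.348 over 10 genes against 5.809, 6.187 and 6.246 in SUM190PT. KRT5 had 10.45, 10.52 and 10.31 in SUM149PT against 5.07, 5.63 and 5.87 in SUM190PT. The basal keratin KRT15 went the other way, with means of 5.76 in SUM149PT and 6.89 in SUM190PT. EPCAM, CDH1, KRT8 and KRT18 lay above 10 in every array without estradiol. Markers of leukocytes stayed near the bottom of the scale, with list medians of 4.37 to 4.65 over the same arrays. Arrays of a SUM149PT group correlated across genes at 0.9949 to 0.9958, and those of a SUM190PT group at 0.9807 to 0.991. In SUM190PT the third vehicle array differed from its group. Its median over 29 DNA replication genes was 7.11, against 9.28 and 8.92 in the other vehicle arrays of that line, and the third estradiol array of SUM190PT showed the same (7.10 against 9.25 and 9.16).

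The lines differed in their response at 3134 genes, with 1364 positive differences (7.41% of genes tested) and 1770 negative ones (9.61%). In SUM149PT 2566 genes rose (13.9%) and 3532 fell (19.2%). In SUM190PT 1186 rose (6.44%) and 1129 fell (6.13%), and the arrays of that line were also the more variable (median SD 0.10 within SUM149PT groups and 0.15 to 0.17 within SUM190PT groups). Most genes with a difference had passed in only 1 line, 1683 in SUM149PT and 727 in SUM190PT. Another 160 moved the same way in both, 26 of them further in SUM149PT and 134 further in SUM190PT, and 334 passed in neither line alone. With each array centred on its own median the difference split into 1025 positive and 2422 negative genes.

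Of the 1294 genes that passed in both lines, 1064 moved the same way and 230 moved in opposite directions. Of these, 106 genes (0.576% of genes tested) rose in SUM149PT and fell in SUM190PT, and 124 (0.673%) fell in SUM149PT and rose in SUM190PT. At 228 of the 230 the CG-1521 and vehicle arrays did not overlap in either line, which the rule nearly forces. The change was the smaller one in SUM149PT at 189 of the 230. Both changes reached 2-fold at 9 genes, MAGED1, INSIG1, SQLE and TBC1D8B towards SUM149PT and SERPINA3, DCBLD1, CHORDC1, CTNNAL1 and DDX60 towards SUM190PT. The 5 towards SUM190PT became 2 without the first SUM190PT vehicle array and 2 with quantile normalization, and the 9 ranged over 6 to 10 in the alternatives run. The count depended on single SUM190PT arrays: it was 101 without the first CG-1521 array, 111 without the third and 105 without the second vehicle array, against 190 to 227 when any other of the 12 arrays was left out. Median centring gave 75 and 175 genes in these directions and quantile normalization 127 and 101, so which direction held more genes depended on the scaling. Just inside the rule lay SUGT1 (adjusted p in SUM149PT 0.0497) and HMOX2 (adjusted p in SUM190PT 0.0495), and just outside lay FAH (0.0501 in SUM149PT) and PCNX1 (0.0504 in SUM149PT).

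**Figure D1:**
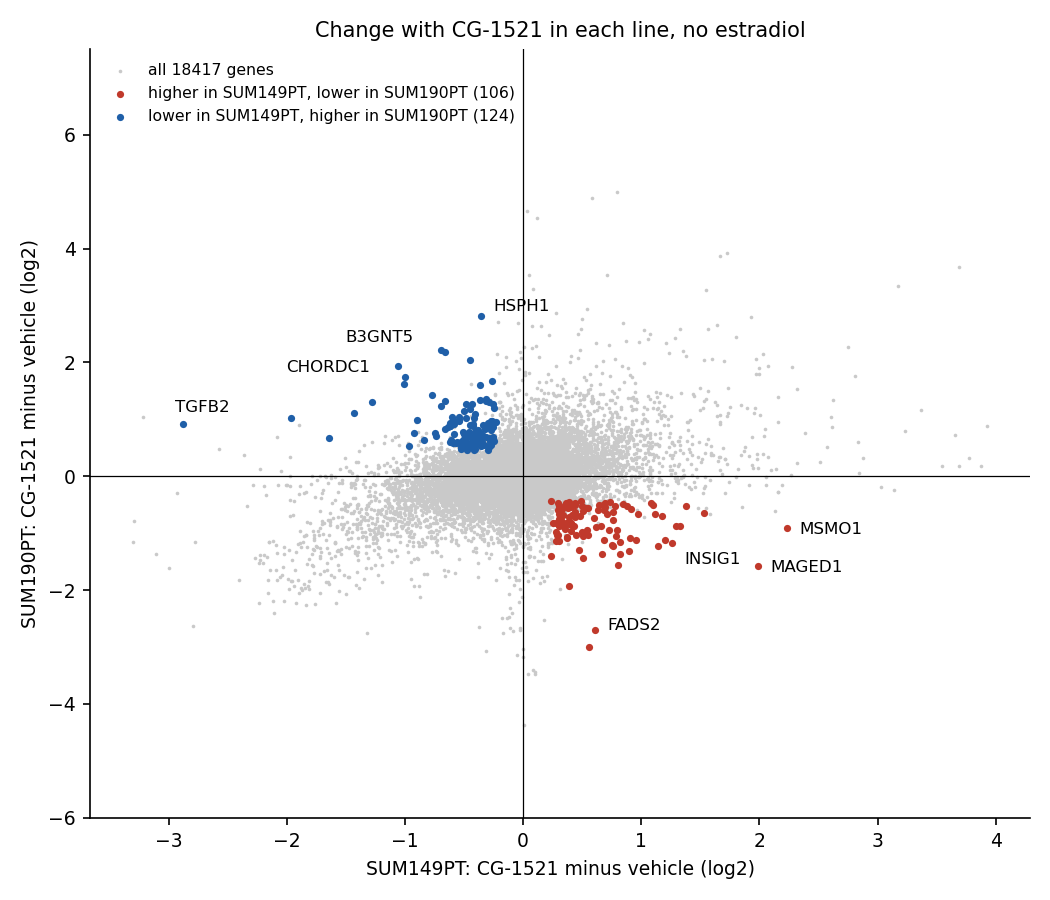
Change with CG-1521 (log2, CG-1521 mean minus vehicle mean of 3 arrays each) in SUM149PT on the horizontal axis and in SUM190PT on the vertical axis, 1 point per gene. The 106 red genes sit in the lower right and the 124 blue genes in the upper left because the rule places them there, and most lie within 1 unit of an axis.

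Cholesterol synthesis was the list with most members, 12 of the 106, among the genes that rose in SUM149PT and fell in SUM190PT. Of 22 measured genes of cholesterol synthesis and uptake, 17 rose and 1 fell in SUM149PT, while 0 rose and 15 fell in SUM190PT. The shares of all genes that rose and fell were 13.9% and 19.2% in SUM149PT, and 6.44% and 6.13% in SUM190PT. The list's median change was 0.76 in SUM149PT and −0.93 in SUM190PT, beside 0.00 and −0.05 over all genes. The difference between the lines passed as positive at 19 of the 22 and as negative at 0, beside 7.41% and 9.61% of all genes. The list median of every array showed the same: 9.002, 9.006 and 8.789 with CG-1521 against 8.011, 8.172 and 7.981 with vehicle in SUM149PT, and 7.973, 8.267 and 7.938 with CG-1521 against 8.788, 8.672 and 8.572 with vehicle in SUM190PT. The groups did not overlap in either line. Without the third SUM190PT vehicle array 15 genes still fell there and 19 differences were still positive. An array pools the RNA of many cells, so a smaller share of expressing cells and less RNA per cell cannot be told apart.

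The 12 sterol genes that met the rule covered most of the pathway. ACAT2 and MVK act at its start, MVD, IDI1 and FDPS make the isoprenoid units, SQLE oxidises squalene, and CYP51A1, TM7SF2, MSMO1 and DHCR7 work on the sterol ring. INSIG1 retains the SREBP escort protein in the endoplasmic reticulum and SREBF2 encodes SREBP-2 itself. Their changes ran between 0.30 and 2.23 in SUM149PT and between −1.22 and −0.50 in SUM190PT. All 12 met it again without the third SUM190PT vehicle array.

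MSMO1, a sterol demethylase, had 11.27, 11.57 and 11.61 with CG-1521 against 9.39, 9.21 and 9.15 with vehicle in SUM149PT. In SUM190PT it had 9.43, 10.05 and 9.48 with CG-1521 against 10.94, 10.42 and 10.33 with vehicle. The groups were apart in both lines and the order of the lines turned round, since SUM190PT was the higher with vehicle and SUM149PT the higher with CG-1521. The change was 2.23 (SE 0.11) in SUM149PT and −0.91 (SE 0.21) in SUM190PT. INSIG1 had 9.76, 9.85 and 9.78 with CG-1521 against 8.56, 8.64 and 8.40 with vehicle in SUM149PT, and 8.04, 8.64 and 7.99 against 9.39, 9.55 and 9.24 in SUM190PT. Its changes were of nearly equal size, 1.26 (SE 0.09) and −1.17 (SE 0.19). SQLE, the squalene epoxidase, had 10.54, 10.41 and 10.69 with CG-1521 against 9.46, 9.39 and 9.34 with vehicle in SUM149PT, and 8.07, 8.98 and 8.79 against 10.02, 9.83 and 9.65 in SUM190PT. Here too no array of one treatment reached those of the other. DHCR7, the last enzyme of the pathway, changed by 0.76 (SE 0.08) in SUM149PT and −1.22 (SE 0.16) in SUM190PT. HMGCS1, the synthase that makes HMG-CoA, did not meet the rule: it rose by 2.13 (SE 0.10) in SUM149PT, and its SUM190PT change of −0.62 (SE 0.24) did not pass (adjusted p = 0.133).

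**Figure D2:**
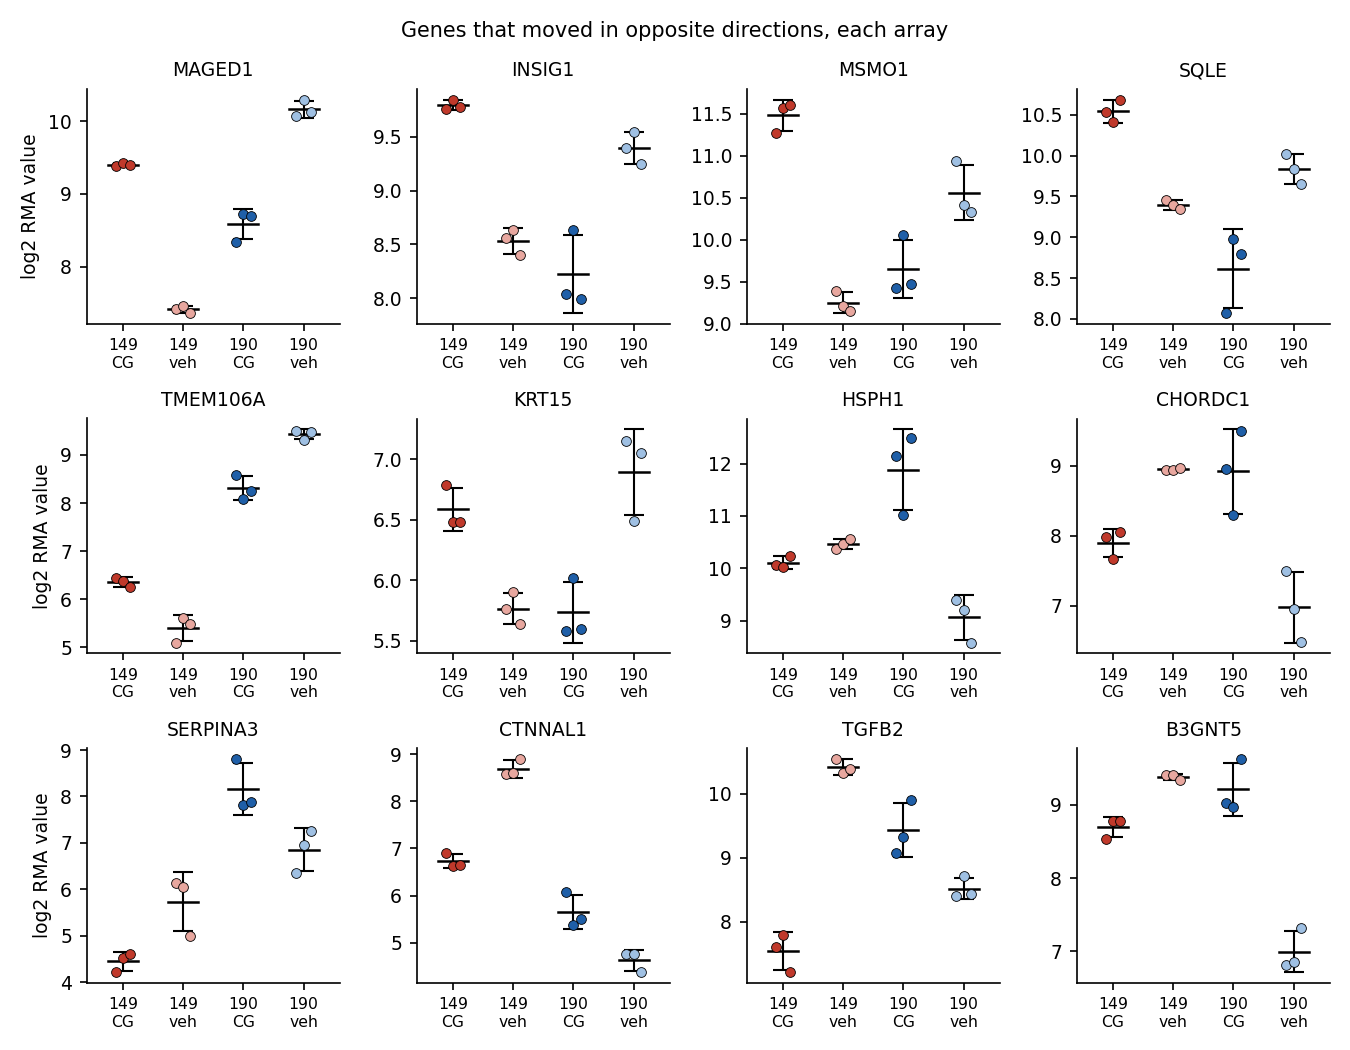
Expression (log2 RMA value) of 12 genes that moved in opposite directions, each point 1 array, with the mean as a line and the SD over 3 arrays as bars. From left to right the groups are SUM149PT with CG-1521, SUM149PT with vehicle, SUM190PT with CG-1521 and SUM190PT with vehicle, and the first 6 genes show the pattern high, low, low, high within lines while the other 6 show the reverse.

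Fatty acid genes followed in part. Of 18 measured genes 7 rose and 6 fell in SUM149PT, against 2 that rose and 11 that fell in SUM190PT, and the list medians were 0.01 and −0.87. Of all genes 13.9% rose and 19.2% fell in SUM149PT, and 6.44% rose and 6.13% fell in SUM190PT. ACSS2, FADS2 and SCD were the 3 that moved in opposite directions. FADS2, a fatty acid desaturase, had 9.39, 9.44 and 9.34 with CG-1521 against 8.86, 8.85 and 8.62 with vehicle in SUM149PT. In SUM190PT it had 7.22, 8.46 and 8.04 with CG-1521 against 11.05, 10.67 and 10.07 with vehicle. The SUM190PT change of −2.69 (SE 0.32) was thus the far larger one, beside 0.61 (SE 0.09) in SUM149PT. SCD, which makes monounsaturated fatty acids, changed by 0.89 (SE 0.13) in SUM149PT and −1.32 (SE 0.20) in SUM190PT, and ACSS2, which activates acetate, by 1.29 (SE 0.09) and −0.88 (SE 0.12). THRSP, a lipogenic regulator, stayed between 4.43 and 4.94 in SUM149PT, while in SUM190PT 4.74, 4.54 and 4.85 with CG-1521 stood against 8.17, 7.51 and 7.57 with vehicle. All these THRSP values but the SUM190PT vehicle arrays lay near the bottom of the scale.

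Cytosolic chaperones showed the reverse pattern. Of 21 measured heat shock genes 3 rose and 9 fell in SUM149PT, while 17 rose and 0 fell in SUM190PT. Shares over all genes were 13.9% and 19.2% in SUM149PT, and 6.44% and 6.13% in SUM190PT. The list's median change was −0.21 in SUM149PT and 1.28 in SUM190PT. Its difference passed as negative at 19 genes and as positive at 0, beside 9.61% and 7.41% of all genes. In SUM149PT the list median was 8.194, 8.206 and 8.275 with CG-1521 against 8.622, 8.647 and 8.602 with vehicle. In SUM190PT it was 10.321, 9.779 and 10.455 with CG-1521 against 8.015, 7.676 and 8.152 with vehicle. The second CG-1521 array of SUM190PT was the lowest of its group, yet above every vehicle array. Without the third vehicle array 18 of the 21 rose in SUM190PT.

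These counts held different kinds of gene. The first kind, 9 genes, moved in opposite directions: HSP90AA1 (the inducible cytosolic HSP90), its co-chaperones CHORDC1 and STIP1, HSPA4, HSPA4L and HSPH1 (exchange factors of HSP70), DNAJA1 (an HSP40), HSPD1 (mitochondrial HSP60) and HSPB1 (a small heat shock protein). Their changes ran between −1.06 and −0.32 in SUM149PT and between 0.81 and 2.82 in SUM190PT, and all 9 met the rule again without the third vehicle array. HSPH1 had 10.07, 10.02 and 10.24 with CG-1521 against 10.37, 10.46 and 10.56 with vehicle in SUM149PT, and 12.15, 11.02 and 12.49 against 9.40, 9.21 and 8.58 in SUM190PT. CHORDC1 had 7.98, 7.67 and 8.05 with CG-1521 against 8.94, 8.95 and 8.97 with vehicle in SUM149PT, and 8.96, 8.30 and 9.51 against 7.50, 6.95 and 6.48 in SUM190PT. HSPB1 had 10.62, 10.53 and 10.60 with CG-1521 against 11.35, 11.39 and 11.34 with vehicle in SUM149PT, and 13.04, 12.77 and 13.38 against 11.76, 11.85 and 11.31 in SUM190PT. At all 3 genes the arrays of the treatments were apart in each line. HSPA4L changed by −0.49 (SE 0.09) in SUM149PT and 1.28 (SE 0.35) in SUM190PT, where the third vehicle array (6.48) lay below the others (7.89 and 7.62).

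The second kind moved in SUM190PT far more than in SUM149PT, and these had some of the lowest differences. All 6 SUM149PT arrays of CRYAB, a small heat shock protein, lay between 3.61 and 3.81. In SUM190PT it had 9.14, 7.60 and 9.80 with CG-1521 against 4.11, 4.31 and 4.16 with vehicle, so its difference between the lines was −4.62 (SE 0.51). The SUM149PT arrays of CRYAB and of HSPB8 and the SUM190PT vehicle arrays of CRYAB lay near the bottom of the scale, so these differences have no exact rank. HSPB8, a partner of the chaperone regulator BAG3, had a difference of −4.42 (SE 0.40), from a change of 0.12 in SUM149PT and 4.54 in SUM190PT. HSPA6, the strictly inducible HSP70, rose in both lines, by 0.58 (SE 0.11) in SUM149PT and 4.88 (SE 0.58) in SUM190PT. At all 3 the second CG-1521 array of SUM190PT was the lowest of its group. HSPA8, the constitutive HSP70, had −0.21 (adjusted p = 0.0605) in SUM149PT and 0.53 (adjusted p = 0.0577) in SUM190PT, with a passed difference of −0.74 (adjusted p = 0.0103). With estradiol HSPA8 passed in both lines, at −0.26 in SUM149PT and 0.40 in SUM190PT.

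**Figure D3:**
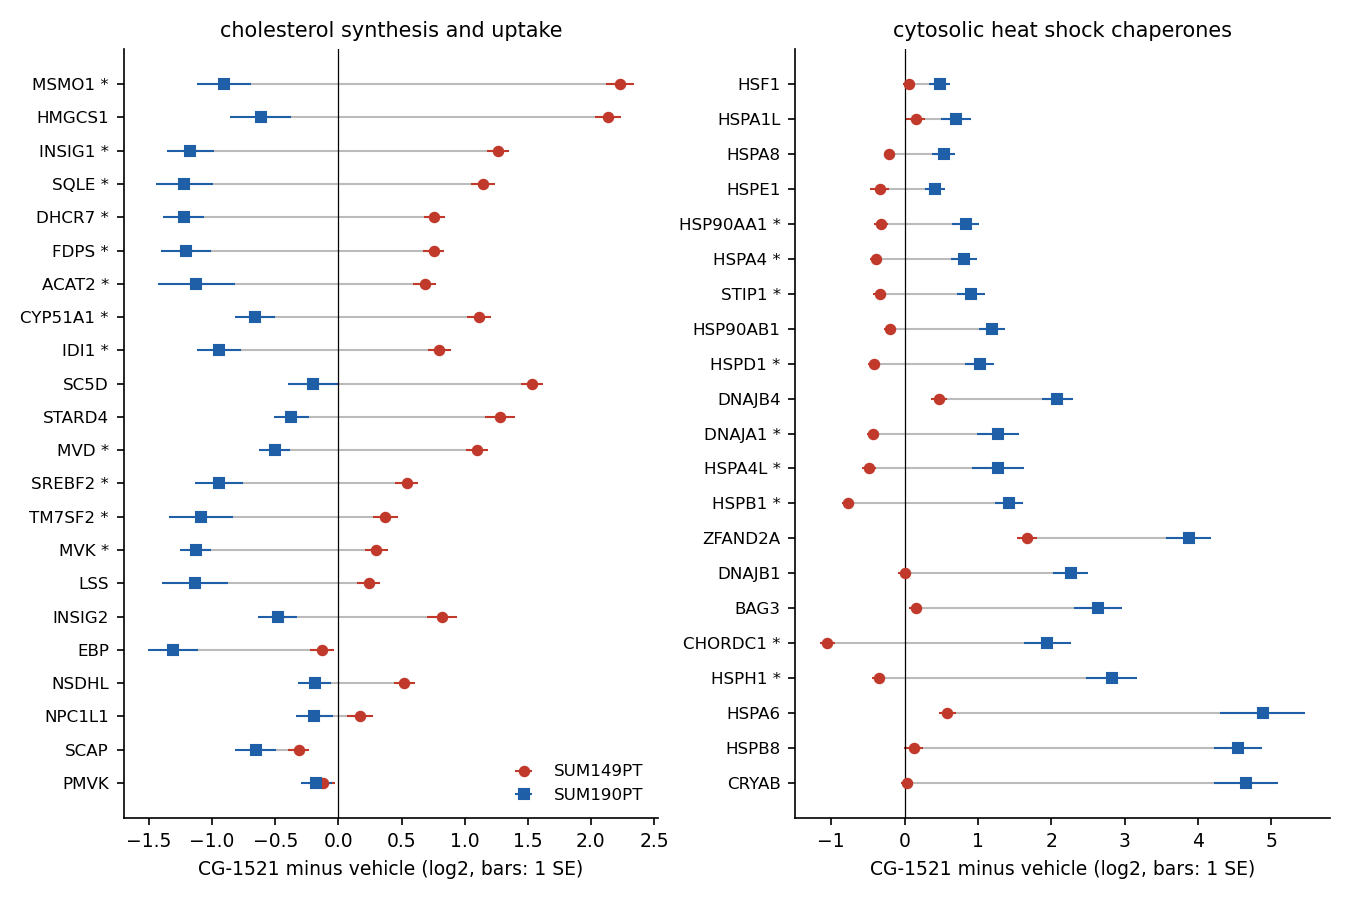
Change with CG-1521 (log2, with bars of 1 SE) in SUM149PT (red circles) and SUM190PT (blue squares) for the 22 measured sterol genes and the 21 measured chaperone genes, ordered by the difference between the lines. Stars mark the 12 and 9 genes that moved in opposite directions, and in the right panel every blue square lies to the right of its red circle.

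Promoter letters were read for these blocks from RefSeq (GRCh38.p14), as windows of 250 bases before to 50 bases after the gene start. A window was found for 90 of the 106 genes, 101 of the 124 and 14237 of all measured genes. The heat shock element was searched as GAANNTTC on both strands. It was held by 7 of 19 chaperone windows (36.8%), by 11 of 101 windows of genes that fell in SUM149PT and rose in SUM190PT (10.9%), by 2 of 90 in the other direction (2.22%) and by 5.44% of all windows. Among the 9 chaperones above CHORDC1, DNAJA1 and HSPB1 had a match before the gene start. The sterol element, searched as TCACNCCAC on both strands, was held by 1 of 20 windows of the sterol list (5.0%), that of SREBF2, and by 1.14% of all windows. The CCAAT box was held by 15 of 20 sterol windows (75.0%), 37.8% of the windows of the 106 genes and 36.3% of all windows. It was not particular to sterol genes, as 20 of 23 windows (87.0%) of the unfolded protein response list described below held it. A match is a run of letters and not a shown binding site. The stretches with these matches are printed 5′ to 3′ on the gene's strand, the matched letters in capitals: SREBF2 at chr22:41832912-41833040 (plus strand), CHORDC1 at chr11:90223050-90223159 (minus strand), DNAJA1 at chr9:33025023-33025142 (plus strand) and HSPB1 at chr7:76302431-76302558 (plus strand).
SREBF2: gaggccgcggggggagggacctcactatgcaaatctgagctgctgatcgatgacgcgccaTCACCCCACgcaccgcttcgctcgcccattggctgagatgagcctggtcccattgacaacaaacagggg
CHORDC1: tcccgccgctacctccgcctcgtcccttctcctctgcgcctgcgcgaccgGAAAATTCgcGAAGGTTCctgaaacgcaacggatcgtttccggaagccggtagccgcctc
DNAJA1: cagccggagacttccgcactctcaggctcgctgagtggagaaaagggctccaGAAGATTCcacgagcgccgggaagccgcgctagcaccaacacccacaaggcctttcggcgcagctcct
HSPB1: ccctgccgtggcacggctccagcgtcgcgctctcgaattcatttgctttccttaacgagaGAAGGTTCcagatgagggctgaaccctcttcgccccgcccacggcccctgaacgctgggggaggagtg

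SREBF2 and DNAJA1 are given values here because of these matches. SREBF2 changed by 0.54 (SE 0.09) in SUM149PT and −0.95 (SE 0.19) in SUM190PT. DNAJA1 changed by −0.43 (SE 0.08) in SUM149PT and 1.28 (SE 0.28) in SUM190PT, where its arrays had 8.99, 8.31 and 9.45 with CG-1521 against 8.02, 7.68 and 7.24 with vehicle.

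Outside these blocks, 197 of the 230 genes belonged to none of the 31 gene lists examined. MAGED1, which encodes a MAGE-family adaptor involved in p75 neurotrophin receptor signalling, had the largest change in the line where a gene moved less. It had 9.38, 9.42 and 9.40 with CG-1521 against 7.42, 7.46 and 7.36 with vehicle in SUM149PT, and 8.34, 8.72 and 8.70 against 10.07, 10.29 and 10.12 in SUM190PT. Its change was 1.99 (SE 0.08) in SUM149PT and −1.57 (SE 0.14) in SUM190PT, which put SUM149PT above SUM190PT with CG-1521 and below it with vehicle. Its family member MAGED2 changed by 0.82 (SE 0.11) and −1.36 (SE 0.15). TBC1D8B, a gene with a RAB GTPase-activating domain, had 6.18, 6.02 and 6.14 with CG-1521 against 4.86, 5.20 and 4.70 with vehicle in SUM149PT, and 6.68, 6.79 and 6.84 against 7.96, 7.64 and 8.06 in SUM190PT. The groups stayed apart, and SUM190PT remained the higher line throughout.

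Other genes that rose in SUM149PT and fell in SUM190PT had varied roles. TMEM106A, a membrane protein gene, changed by 0.96 (SE 0.12) in SUM149PT and −1.12 (SE 0.15) in SUM190PT. FXYD3, a regulator of the sodium pump, changed by 0.90 (SE 0.09) and −1.09 (SE 0.15), and the galectin gene LGALS8 by 1.33 (SE 0.08) and −0.87 (SE 0.16). KRT15, a keratin of basal cells, had 6.79, 6.48 and 6.48 with CG-1521 against 5.76, 5.90 and 5.64 with vehicle in SUM149PT, and 5.58, 6.02 and 5.60 against 7.14, 6.49 and 7.05 in SUM190PT. These values lie low on the scale. XBP1 and PDIA4 came from the unfolded protein response, by which cells adapt to misfolded proteins in the endoplasmic reticulum. XBP1, its transcription factor, changed by 0.42 (SE 0.09) in SUM149PT and −0.68 (SE 0.15) in SUM190PT. PDIA4, a disulfide isomerase, had 10.60, 10.63 and 10.73 with CG-1521 against 10.20, 10.27 and 10.32 with vehicle in SUM149PT, and 9.86, 9.93 and 10.10 against 10.73, 10.64 and 10.65 in SUM190PT.

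Among the genes that fell in SUM149PT and rose in SUM190PT, TGFB2, a secreted TGF-beta ligand, had the largest difference, −3.79 (SE 0.27). It had 7.60, 7.79 and 7.21 with CG-1521 against 10.54, 10.31 and 10.39 with vehicle in SUM149PT, and 9.07, 9.33 and 9.90 against 8.41, 8.71 and 8.43 in SUM190PT. SUM149PT was the higher line with vehicle and the lower one with CG-1521. CAV1, the coat protein of caveolae, changed by −1.65 (SE 0.10) in SUM149PT and 0.67 (SE 0.14) in SUM190PT. CTNNAL1, a catenin-like gene, had 6.91, 6.64 and 6.64 with CG-1521 against 8.58, 8.60 and 8.91 with vehicle in SUM149PT, and 6.07, 5.38 and 5.50 against 4.76, 4.75 and 4.37 in SUM190PT. DCBLD1, a membrane receptor-like gene, changed by −1.43 (SE 0.11) and 1.10 (SE 0.31). B3GNT5, which starts lacto-series glycolipids, had 8.54, 8.77 and 8.77 with CG-1521 against 9.41, 9.41 and 9.34 with vehicle in SUM149PT, and 9.03, 8.98 and 9.63 against 6.81, 6.86 and 7.32 in SUM190PT. Here the SUM190PT rise of 2.22 (SE 0.21) was the larger part.

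Transcription factors and metabolic genes were also found in this direction. MYC, a growth regulator, had 9.95, 10.04 and 9.90 with CG-1521 against 10.34, 10.22 and 10.38 with vehicle in SUM149PT, and 9.37, 9.46 and 9.61 against 8.91, 8.82 and 8.55 in SUM190PT. Both changes were under 2-fold. The AP-1 gene FOSL2 changed by −0.58 (SE 0.08) and 0.92 (SE 0.18), ETS2 by −0.90 (SE 0.10) and 0.98 (SE 0.21), and the clock gene PER1 by −0.92 (SE 0.10) and 0.75 (SE 0.18). SLC5A3, the myo-inositol transporter, changed by −0.995 (SE 0.14) in SUM149PT and 1.74 (SE 0.26) in SUM190PT. Of the glycolysis genes, the glucose transporter SLC2A1 changed by −0.42 (SE 0.13) and 0.60 (SE 0.15), and the phosphofructokinase PFKP by −0.61 (SE 0.10) and 0.64 (SE 0.18). TWNK, the mitochondrial DNA helicase, changed by −0.75 (SE 0.10) and 0.76 (SE 0.13). Without the third SUM190PT vehicle array PFKP and the tubulin gene TUBA1C (−0.44, SE 0.09, and 0.70, SE 0.19, with all arrays) no longer met the rule, as neither passed in SUM190PT.

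SERPINA3, an acute-phase protease inhibitor, had 4.22, 4.52 and 4.62 with CG-1521 against 6.14, 6.05 and 5.00 with vehicle in SUM149PT, and 8.81, 7.81 and 7.88 against 6.36, 6.95 and 7.26 in SUM190PT. The third SUM149PT vehicle array lay well below the others. DDX60, an antiviral helicase gene, had 3.62, 3.72 and 3.69 with CG-1521 against 4.69, 4.57 and 4.79 with vehicle in SUM149PT, and 4.73, 4.14 and 6.20 against 3.44, 3.31 and 3.45 in SUM190PT. These are low values, and the SUM190PT arrays with CG-1521 were widely spread.

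Genes with high differences had mostly moved in 1 line. AGR2, an isomerase of the secretory pathway and a luminal gene, had 8.10, 8.28 and 8.54 with CG-1521 against 4.56, 4.42 and 4.31 with vehicle in SUM149PT. In SUM190PT it was high in both, 11.91, 11.47 and 11.55 with CG-1521 against 11.71, 11.38 and 11.31 with vehicle, so its difference was 3.70 (SE 0.21). CYP4Z1, a cytochrome P450 of mammary tissue, had a change of 0.01 (SE 0.10) in SUM149PT and fell in SUM190PT to 4.41, 4.17 and 4.80 with CG-1521, against 8.48, 8.10 and 9.90 with vehicle, for a difference of 4.37 (SE 0.46). All its groups but the SUM190PT vehicle arrays lay near the bottom of the scale, so this value too has no exact rank. FGG, the fibrinogen gamma chain, had a difference of 3.57 (SE 0.36) from a SUM190PT change of −3.47. Its SUM149PT means, 3.34 with CG-1521 and 3.24 with vehicle, lay near the bottom of the scale, so its difference has no exact rank either. CASP14, a caspase of keratinocytes, had the opposite sign (difference −4.26, SE 0.80): it fell by 3.22 in SUM149PT, while its SUM190PT arrays with CG-1521 ran from 5.49 to 8.84.

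Lineage and matrix lists also held passed differences. Over all genes 13.9% rose and 19.2% fell in SUM149PT, against 6.44% and 6.13% in SUM190PT. The difference passed as positive at 7.41% of all genes and as negative at 9.61%. Of 22 luminal genes 3 rose and 2 fell in SUM149PT, against 0 and 11 in SUM190PT, and the difference was positive at 9 and negative at 0. The AP-2 factor TFAP2B (difference 2.35, SE 0.28) and the secreted protein PIP (1.95, SE 0.37) fell in SUM190PT and lay near the bottom of the scale in SUM149PT. Basal genes rose at 6 of 10 in each line, and the 5 passed differences were negative, as for the annexin ANXA1 (0.67 in SUM149PT and 2.02 in SUM190PT) and the integrin ITGA6 (0.32 and 1.59). EGFR had −0.05 (SE 0.08) in SUM149PT and rose by 1.07 (SE 0.16) in SUM190PT. Of 19 mesenchymal genes 1 rose and 12 fell in SUM149PT, against 2 and 0 in SUM190PT. THBS1, a matrix glycoprotein, fell by 2.08 (SE 0.12) in SUM149PT, and its SUM190PT change of 0.70 (SE 0.27) did not pass. TGFBI, a TGF-beta-induced matrix protein, fell by 2.36 (SE 0.11) in SUM149PT beside 0.38 (SE 0.31) in SUM190PT. Fibroblast markers were among the genes that fell in SUM149PT, 3 of 10 beside 19.2% of all genes. Their list medians were 4.95 to 5.01 with CG-1521 against 4.97 to 5.12 with vehicle in that line. Their part in the mesenchymal result was not tested.

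Stress programmes differed as well. Unfolded protein response genes rose at 18 of 23 in SUM149PT and at 2 in SUM190PT, where 3 fell, and 12 differences were positive. Of all genes 13.9% rose in SUM149PT, and 6.44% rose and 6.13% fell in SUM190PT. Differences passed as positive at 7.41% of all genes and as negative at 9.61%, shares that also stand beside the next list. HERPUD1, an endoplasmic reticulum degradation gene, rose by 1.71 (SE 0.12) in SUM149PT beside 0.31 (SE 0.32) in SUM190PT, and the ubiquitin ligase gene SYVN1 by 1.09 (SE 0.10) beside −0.15 (SE 0.14). In the ATF4 list, which covers amino acid starvation, 18 of 28 rose in SUM149PT and 3 in SUM190PT, though 11 rose in SUM190PT without the third vehicle array. Differences of that list were positive at 9 and negative at 1, but at 7 and 5 without that array. SLC7A11, the cystine transporter, rose by 3.37 (SE 0.14) in SUM149PT beside 1.16 (SE 0.36) in SUM190PT. HERPUD1's difference lost its call without the third SUM149PT CG-1521 array or the second vehicle array of that line. ATF3, a stress-induced factor of the ATF4 list, rose by 0.85 (SE 0.09) in SUM149PT and 2.70 (SE 0.47) in SUM190PT, a difference that lost its call in 9 of the 12 fits that left out 1 array, among them all 6 without a SUM149PT array. NRF2 redox genes rose at 16 of 19 in SUM149PT and 10 in SUM190PT, beside 13.9% and 6.44% of all genes. Their differences were positive at 6 and negative at 4, with a median of 0.14. The aldo-keto reductases AKR1C1 (3.77 in SUM149PT and 0.33 in SUM190PT) and AKR1C3 (3.69 and 0.18) had large differences, but they are close paralogs whose probes may not separate them fully.

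**Figure D4:**
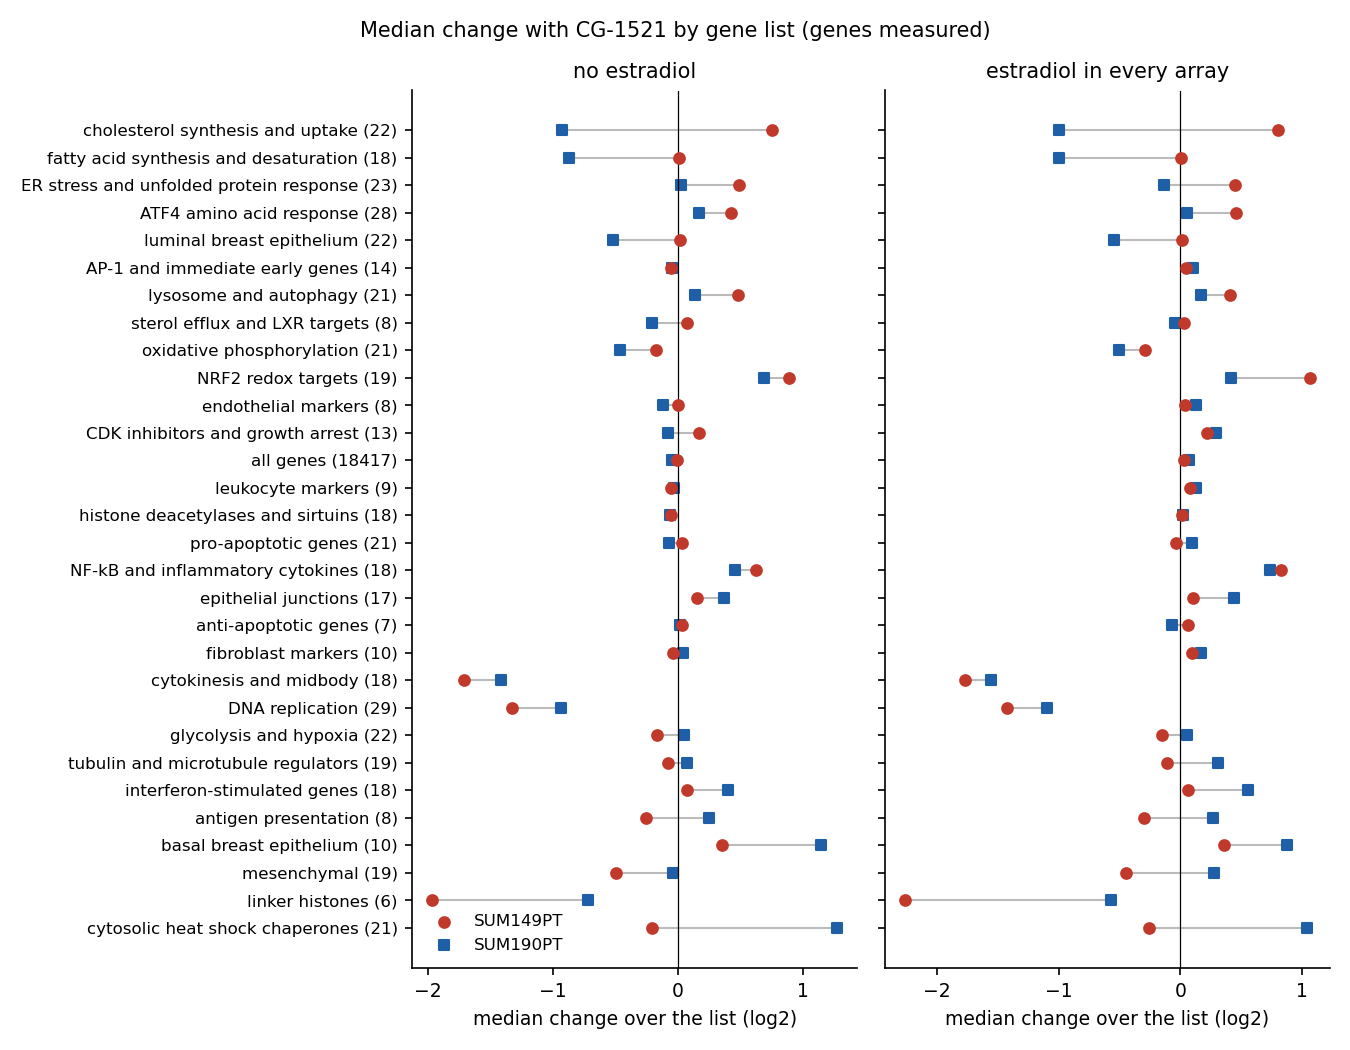
Median change with CG-1521 (log2) over each gene list with at least 1 passed difference, for SUM149PT (red circles) and SUM190PT (blue squares), without estradiol on the left and with estradiol in every array on the right; the number of measured genes follows each list's name. The cholesterol list is the top row, with medians of 0.76 and −0.93 on the left, and the chaperone list is the bottom row, with −0.21 and 1.28.

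Other lists moved together in both lines. All 26 spindle genes fell in SUM149PT and 21 fell in SUM190PT, with medians of −1.86 and −1.82, and 0 had a passed difference in either direction. Of all genes 19.2% fell in SUM149PT and 6.13% in SUM190PT, and differences passed as positive at 7.41% and as negative at 9.61%. Without the third SUM190PT vehicle array 25 fell in that line, with a median of −2.26, and 1 difference passed as positive. DNA replication genes fell at 29 of 29 in SUM149PT and 4 in SUM190PT, but at 28 in SUM190PT without the third vehicle array. That list had 1 passed difference with all arrays and 1 without it. BIRC5, which encodes survivin, changed by −1.72 (SE 0.08) and −1.40 (SE 0.27), and the CDK inhibitor gene CDKN1A by 1.45 (SE 0.12) and 1.40 (SE 0.15), with differences of −0.32 (adjusted p = 0.523) and 0.04 (adjusted p = 0.91). DDIT3 rose by 2.16 in SUM149PT and 1.39 in SUM190PT, and ERBB2 had changes of −0.28 and −0.52. TXNIP, often raised by deacetylase inhibitors, had 0.17 and −0.10 and passed in neither line.

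The 12 arrays with estradiol took no part in choosing the genes, but they may not be independent of the others. Same-numbered arrays deviated from their group means together across the estradiol and no-estradiol groups of a treatment, with correlations over all genes of 0.0542 to 0.23 in the 6 SUM149PT pairs and 0.229 to 0.729 in the 6 SUM190PT pairs. The p-values below take no account of this. Across all genes 1945 differences were positive (10.6%) and 1789 negative (9.71%) there. Of the 106 genes that rose in SUM149PT and fell in SUM190PT, 100 passed with the same sign, 0 passed with the other sign and 6 did not pass. Of the 124 in the other direction 97 passed with the same sign, 0 with the other and 27 did not pass. In the first set the median difference was 1.42, beside 1.33 without estradiol, and in the second −1.03, beside −1.19. The whole rule, which also asks for a call in each line, was met with the same signs by 74 and 58 of them, and by 469 genes in all. The 132 genes shared by both sets of arrays were 57.4% of the 230 and 28.1% of the 469.

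The difference between the lines passed again at every sterol and chaperone gene that had met the rule. With estradiol all 12 sterol genes had positive differences, from 1.36 to 3.82, with adjusted p of 1.21e-06 to 0.0033. FADS2 of the fatty acid list had 9.37, 9.43 and 9.33 with estradiol plus CG-1521 against 8.54, 8.87 and 8.73 with estradiol in SUM149PT, and 7.07, 8.43 and 8.04 against 10.95, 10.96 and 10.25 in SUM190PT. HMGCS1, short of the rule without estradiol, fell in SUM190PT there (−1.06, adjusted p = 0.0126). All 9 chaperones had negative differences, from −2.74 to −0.95, with adjusted p of 7.7e-06 to 0.00778. HSPH1 had 10.07, 10.03 and 10.12 with estradiol plus CG-1521 against 10.48, 10.46 and 10.35 with estradiol in SUM149PT, and 11.87, 11.30 and 11.99 against 9.53, 9.49 and 8.97 in SUM190PT. The array groups were again apart within each line. MAGED1 had a difference of 3.37 (adjusted p = 1.59e-07), TGFB2 of −3.52 (adjusted p = 5.25e-06), B3GNT5 of −2.50 (adjusted p = 7.29e-06) and MYC of −0.92 (adjusted p = 0.00074). AGR2 reached 3.86 (adjusted p = 1.38e-07), CYP4Z1 4.92 (adjusted p = 1.27e-05) and CRYAB −4.68 (adjusted p = 1.37e-05). Some single-line changes were not called again, among them TGFB2 in SUM190PT at 0.65 (adjusted p = 0.0785) and TWNK at 0.25 (adjusted p = 0.125). The same held in SUM190PT for the chaperone gene HSPA4L at 0.73 (adjusted p = 0.0851) and for DCBLD1 at 0.77 (adjusted p = 0.0994).

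Of the 68 genes with a passed difference listed below, ITGA6 (−0.55, adjusted p = 0.157), HDAC1 (−0.37, adjusted p = 0.326) and IFIT1 (−2.09, adjusted p = 0.0576) did not pass with estradiol. Nor did SUGT1, just inside the rule (−0.07, adjusted p = 0.824), and PCNX1, just outside it (−0.32, adjusted p = 0.109). HDAC1, a target of the drug class, had a difference of −1.07 (SE 0.25) without estradiol, with 10.66, 10.59 and 10.43 with CG-1521 against 10.98, 11.12 and 11.13 with vehicle in SUM149PT, and 7.85, 8.08 and 7.74 against 7.66, 7.55 and 6.81 in SUM190PT. The third SUM190PT vehicle array was the lowest. IFIT1, an interferon-induced gene, had 5.96, 5.34 and 8.29 with estradiol plus CG-1521 in SUM190PT, a spread wider than its change.

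**Figure D5:**
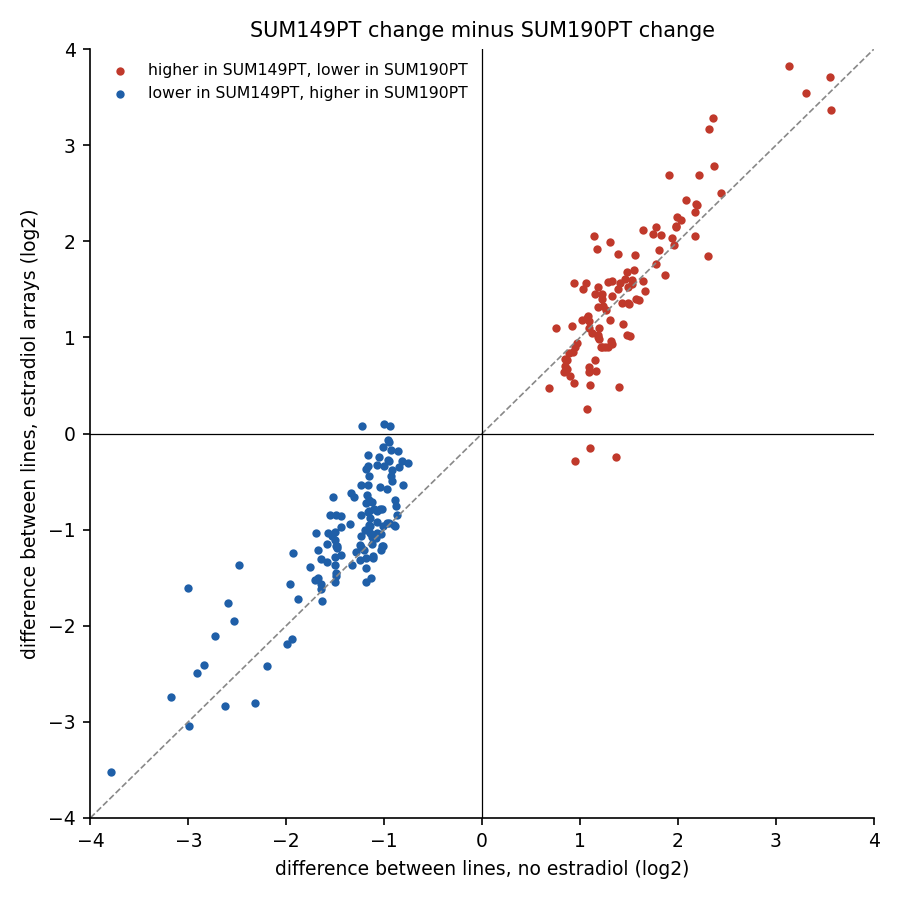
Difference between the lines (SUM149PT change minus SUM190PT change, log2) for the 230 genes, without estradiol on the horizontal axis, where they were chosen, and in the estradiol arrays on the vertical axis. The dashed line marks equal values, and 103 of the 106 red and 121 of the 124 blue genes keep their sign.

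Opposite movement can bring the levels of the lines together or drive them apart, and the estradiol arrays showed both. For the 106 genes the median gap, SUM149PT minus SUM190PT, was 0.05 with estradiol plus CG-1521 against −1.39 with estradiol alone. Signs were mixed, and the median size of the gap was 0.66 against 1.45. The size of the gap was the smaller with CG-1521 at 74 of the 106. Of the 106, 50 were lower in SUM149PT with CG-1521, against 90 with estradiol alone. For the 124 genes the median gap was −0.68 with estradiol plus CG-1521 against 0.42 with estradiol alone. Its median size was 0.86 against 0.70, and the size was the smaller with CG-1521 at 61. Over all genes the size of the gap was the smaller with CG-1521 at 60.3%.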

How the data were processed

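RNA of both lines was hybridized to Affymetrix Human Gene 1.0 ST arrays after column purification and small-sample amplification, per the labels' protocols. The authors deposited log2 values from RMA, run in Affymetrix Expression Console per the submitters' processing notes, which name no version. The sources used here do not say whether the lines were normalized in one run. Of 33297 probe sets 19460 had a single gene symbol and were kept, and the brightest stood for each of the 769 genes with several, which left 18417 genes with no filter on dim ones. Arrays give no read depth, and precision rests on how many there are.

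The difference between the lines was fitted with limma 3.58.1 (R 4.3.3, statmod 1.5.0) over the 12 arrays without estradiol, each line's change over its 6 arrays, and the 12 arrays with estradiol separately. Tests were two-sided with Benjamini-Hochberg adjustment over all genes, and the fit was tested on simulated data. Tables and figures used Python 3.11.15, pandas 2.3.3, numpy 2.4.6 and matplotlib 3.10.9. The members and gene lists were chosen with earlier results of these data known, so values in the arrays that chose them are a description. Named genes were the 12 genes per direction with the largest smaller change among those with arrays apart, the 4 highest and 4 lowest differences, up to 4 members per list by size of difference, and a short list always looked up. 1 gene of that list is not reported here. SREBF2 and DNAJA1 were added after their values were seen. Replicate numbers did not pair CG-1521 with vehicle arrays: correlations of same-numbered arrays' deviations were not all above 0.1 in any line. Across the estradiol and no-estradiol groups same-numbered arrays did deviate together, as a check chosen after seeing the data showed. Alternatives were other normalizations, filters, fits, array weights, a replicate block and each array left out.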

Additional observations from a re-analysis of the deposited data

Results flagged for a closer look

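Of 73 genes followed singly in the 12 arrays without estradiol, 68 passed limma's test of the difference between SUM149PT and SUM190PT in the change with CG-1521. The 73 are not every gene named in the text. IL1A, CXCL3, IL1B, LIF, SUGT1 and HMOX2, for example, also passed and are not among them. Of the 68, 29 differences were positive and 39 negative, with adjusted p of 1.75e-08 to 0.0372. Apart from a short list always looked up, the genes were taken from those whose difference had passed in these same arrays. The 68 and their adjusted p therefore largely follow from the choice and are a description. Over all genes the difference passed as positive at 7.41% and as negative at 9.61%. With estradiol 65 of the 68 passed too. All values are SUM149PT change minus SUM190PT change on the log2 scale, 3 arrays per group. Groups of 3 arrays allow no test for a single array far from the others.

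Among these genes the highest differences were CYP4Z1 4.37, AGR2 3.70, FGG 3.57, MAGED1 3.56, AKR1C3 3.51, AKR1C1 3.45, FADS2 3.30, MSMO1 3.14, THRSP 3.04 and HMGCS1 2.75. Smaller positive differences were INSIG1 2.44, SQLE 2.37, TFAP2B 2.35, TBC1D8B 2.31, SLC7A11 2.21, SCD 2.21, LGALS8 2.19, MAGED2 2.18, ACSS2 2.17 and TMEM106A 2.08. The remaining positive differences were FXYD3 1.99, DHCR7 1.99, KRT15 1.98, PIP 1.95, SREBF2 1.49, HERPUD1 1.40, SYVN1 1.24, PDIA4 1.10 and XBP1 1.09.

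The lowest differences among them were CRYAB −4.62, HSPB8 −4.42, HSPA6 −4.30, CASP14 −4.26, TGFB2 −3.79, IFIT2 −3.21, HSPH1 −3.18, CHORDC1 −3.001, CTNNAL1 −2.99 and B3GNT5 −2.91. Next came THBS1 −2.78, TGFBI −2.74, SLC5A3 −2.73, DDX60 −2.63, H1-1 −2.62, SERPINA3 −2.59, DCBLD1 −2.53, CAV1 −2.32, IFIT1 −2.24 and HSPB1 −2.19. Further negative differences were ETS2 −1.88, ATF3 −1.85, HSPA4L −1.76, H1-5 −1.75, DNAJA1 −1.71, PER1 −1.68, TWNK −1.51, FOSL2 −1.50, ANXA1 −1.35 and ITGA6 −1.27. The remaining negative differences were PFKP −1.25, TUBA1C −1.13, EGFR −1.13, HDAC1 −1.07, MYC −1.07, PSMB8 −1.05, SLC2A1 −1.03, HSPA8 −0.74 and PSMB9 −0.73.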

How the results depend on the processing

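The count of 230 genes that moved in opposite directions became 407 with all 24 arrays in one fit and 348 with array weights. It was 54 at an adjusted p under 0.01 and 85 when a 1.5-fold change in each line replaced the calls within lines. Members changed as well: 164 of the 230 were among the 407, 227 among the 348 and 61 among the 85. Leaving out 1 array gave 101 to 227, and the 227, found without the first SUM190PT vehicle array, held 167 of the 230. The count of 106 genes up in SUM149PT became 173 with all 24 arrays, 82 of them shared, and 48 to 110 with 1 array left out. The count of 124 genes down in SUM149PT became 234 with all 24 arrays, 82 of them shared. It was 190 with array weights and 44 to 137 with 1 array left out. With a replicate block 205 moved in opposite directions, and no count moved past 1.5 times. The 197 of the 230 that passed with estradiol in the same direction ranged over 182 to 199 in all alternatives run. The cause of these movements was not tested, except that a stricter threshold calls fewer genes by construction.

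Among single genes 2979 of the values recomputed kept direction and side of the threshold, 40 lost the call, 13 gained one and 16 changed sign. The 16 belonged to 3 genes whose difference had not passed. For CDKN1A it was −0.0799 with array weights, −0.0428 centred and −0.0097 without the third SUM190PT vehicle array, with a range of −0.0822 to 0.166 over arrays left out. For BIRC5 it was 0.018 without that array (range −0.583 to 0.018), and with estradiol 0.0041 with array weights and 0.105 without the third estradiol array (range −0.603 to 0.105). For TXNIP it was −0.0165 without the third vehicle array (range −0.0165 to 0.457) and with estradiol −0.0175 (range −0.0175 to 0.702). ATF3 and PSMB9 lost the call in most fits with 1 array left out (PSMB9 adjusted p up to 0.0837), and ATF3 with trend and robust variances (adjusted p = 0.0801). Small changes in SUM190PT were limited by the spread of its arrays.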

Other observations

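Immune genes differed between the lines in both directions. For comparison, 13.9% of all genes rose and 19.2% fell in SUM149PT, against 6.44% and 6.13% in SUM190PT. Differences passed as positive at 7.41% of all genes and as negative at 9.61%. Of 18 measured NF-kB and inflammatory cytokine genes 11 rose and 2 fell in SUM149PT, while 8 rose and 0 fell in SUM190PT, and the difference was positive at 4 and negative at 3. IL1A, an interleukin-1 gene, had 10.12, 9.995 and 10.15 with CG-1521 against 8.08, 7.91 and 7.85 with vehicle in SUM149PT, and lay at the bottom of the scale in SUM190PT, at 4.07 or lower in all 6 arrays without estradiol. The difference was 2.01 (SE 0.17) for IL1A, 1.84 (SE 0.21) for the chemokine CXCL3 and 1.65 (SE 0.19) for IL1B. It was −1.35 (SE 0.28) for the cytokine LIF, which rose in both lines. Of 18 interferon-stimulated genes 3 rose and 1 fell in SUM149PT with CG-1521, while 7 rose and 0 fell in SUM190PT, and the difference was positive at 1 and negative at 6. IFIT2, an antiviral gene, had 3.92, 3.74 and 3.52 with CG-1521 against 3.57, 3.67 and 3.69 with vehicle in SUM149PT, where the groups overlapped. In SUM190PT it had 7.28, 6.41 and 8.55 with CG-1521 against 3.95, 4.02 and 4.38 with vehicle. Antigen presentation genes fell at 3 of 8 in SUM149PT and rose at 1 in SUM190PT, with negative differences at 5. The immunoproteasome subunit PSMB8 fell by 0.64 (SE 0.09) in SUM149PT and had 0.41 (SE 0.15) in SUM190PT, and PSMB9 fell by 0.82 (SE 0.08) beside −0.09 (SE 0.20), a difference that lost its call in most fits with 1 array left out.

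Linker histone genes fell at 5 of 6 in SUM149PT and 2 in SUM190PT, beside 19.2% and 6.13% of all genes. Their differences passed as negative at 3 and as positive at 0, beside 9.61% and 7.41% of all genes. Without the third SUM190PT vehicle array 3 of them fell in that line. H1-1 had 5.88, 5.61 and 5.67 with CG-1521 against 8.76, 8.62 and 8.56 with vehicle in SUM149PT, and 5.02, 4.89 and 5.09 against 5.35, 5.11 and 5.45 in SUM190PT, where it was already low. H1-5 had 8.31, 8.38 and 8.18 against 11.37, 11.46 and 11.36 in SUM149PT, and 7.71, 8.30 and 7.64 against 9.96, 9.60 and 8.16 in SUM190PT, where the third vehicle array lay within the CG-1521 range. Lysosome and autophagy genes rose at 14 of 21 in SUM149PT and 4 in SUM190PT, beside 13.9% and 6.44% of all genes. Their differences passed as positive at 3 and as negative at 1, beside 7.41% and 9.61% of all genes. Metallothionein genes had 0 passed changes of 9 in either line by limma without estradiol.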
